A study of Mus musculus with 12 samples.

Results

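The report covers 6 mitochondrial carrier genes, the uncoupling protein genes Ucp2, Ucp3, Slc25a14 (UCP5) and Slc25a27 (UCP4) and the ADP/ATP carrier genes Slc25a4 (ANT1) and Slc25a5 (ANT2). They were chosen by name from the 27833 genes of the hippocampal FPKM table (read fragments scaled by transcript length and library total). All 6 had a mean FPKM of at least 0.5 and so belonged to the 13796 genes tested. RNA was sequenced from the hippocampus of male C57BL/6J mice, labelled wild type, that were 20 months old. Every mouse was gavaged orally for 14 days. CON mice received normal saline (n = 3 libraries), PQQ-L mice received pyrroloquinoline quinone at 5 mg/kg/day (n = 5) and PQQ-H mice received it at 10 mg/kg/day (n = 4). PQQ is a small redox-active quinone that is taken as a dietary supplement. The study assigned 6 mice to each group, and 12 libraries were analyzed here. The comparisons ask whether either dose went with another level of these carriers in the aged hippocampus, and the comparisons of PQQ-L and PQQ-H with CON share the same 3 CON libraries.

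The carriers of this family sit in the inner mitochondrial membrane. ADP/ATP carriers exchange cytosolic ADP for ATP made in the matrix, and so connect ATP synthase to the rest of the cell. Uncoupling proteins are named after UCP1, which lets protons return to the matrix without ATP synthesis in brown fat. UCP2 is made in many tissues, and in the brain it is best known from microglia and other immune cells and from some neurons. UCP3 is the form of skeletal muscle, and UCP4 and UCP5 are found mainly in neurons. How far these relatives carry protons in the brain is still debated.

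Ucp2 and Ucp3 are neighbours. On GRCm38 (GENCODE M21), Ucp3 lies on the plus strand of chromosome 7 from 100472990 to 100486432, and Ucp2 lies on the same strand from 100493337 to 100502020, with a gap of 6904 bases between them. The files were made on mm39, so these positions serve only for orientation. The promoters of this pair are shown because Ucp2 is the gene whose call the results turn on and Ucp3 is its neighbour at a far lower level. Both are RefSeq sequences of GRCm38.p6 on the plus strand, each from 250 bases before the transcription start to 50 bases after it. For Ucp2 (chr7:100493108-100493407) the capitals mark the GC box GGGCGG, found here on the minus strand as CCGCCC. For Ucp3 (chr7:100472741-100473040) they mark AGGTCA, a binding element of nuclear receptors.
Ucp2: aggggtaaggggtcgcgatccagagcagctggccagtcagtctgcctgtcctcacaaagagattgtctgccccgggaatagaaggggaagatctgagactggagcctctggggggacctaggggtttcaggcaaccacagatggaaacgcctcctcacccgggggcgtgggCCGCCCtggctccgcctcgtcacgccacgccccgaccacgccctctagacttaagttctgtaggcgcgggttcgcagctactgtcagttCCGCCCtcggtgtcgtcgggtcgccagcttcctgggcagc
Ucp3: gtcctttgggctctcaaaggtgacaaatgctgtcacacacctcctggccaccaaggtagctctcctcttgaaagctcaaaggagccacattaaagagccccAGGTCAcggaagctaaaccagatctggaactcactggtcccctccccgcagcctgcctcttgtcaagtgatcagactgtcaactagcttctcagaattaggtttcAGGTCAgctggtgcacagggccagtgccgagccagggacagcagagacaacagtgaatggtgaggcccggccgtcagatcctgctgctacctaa
The Ucp2 promoter had a GC content of 64.3% and 2 GC boxes. The Ucp3 promoter had a GC content of 55.0%, no GC box and 2 AGGTCA motifs. AGGTCA was not found in the Ucp2 window on either strand. Over 32851 mouse promoters of the same length the median GC content was 52.7%, GGGCGG was present in 35.7% and AGGTCA in 16.3%, counting both strands. A promoter was matched for 5 of the 6 genes. All of those but Ucp3 held at least 1 GC box, and TATAA, present in 24.9% of all promoters, was found in those of Slc25a4 and Slc25a5. These matches describe letters in a window, and no binding was measured.

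Depth and tissue were checked first. The libraries held between 29654553 and 38179496 reads on genes, with a median of 35168171. Ucp2 rested on 575 to 2552 reads per library and Ucp3 on 58 to 156. By their striatal markers 4 libraries stood apart. In CON 1, CON 3, PQQ-H 1 and PQQ-H 2 the summed FPKM of 12 striatal markers was 1349 to 3388, against 39.4 to 182 in the other 8. The same 4 libraries had the lowest sums of 12 markers of hippocampal neurons, at 144 to 234 against 281 to 573. No PQQ-L library was among them. Thalamic markers picked out another set. The summed FPKM of 8 of them was 135 in CON 1, 133 in CON 2 and 103 in PQQ-L 3. In the remaining libraries it was 17.9 to 48.1. Where replicates are compared, nothing in the labels says more than that each library is 1 numbered sample, so the p-values measure the spread between these samples.

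The levels of the 6 genes spanned more than 2 orders of magnitude on the FPKM scale. FPKM is per length, so the order of genes depends on the lengths used, which are not given in the sources used here. In PQQ-L, Slc25a27 had 1186 to 1539 reads and Ucp2 575 to 1039, yet Slc25a27 was lower in FPKM. The length behind the FPKM was therefore greater for Slc25a27 than for Ucp2. The longest annotated coding transcripts stand in the reverse order, at 2895 bases for Slc25a27 and 3988 for Ucp2. Comparisons between genes below therefore hold on the FPKM scale only. Over the 12 libraries the mean was 542 ± 39.6 FPKM (SD) for Slc25a4, 202 ± 23.4 for Slc25a5, 29.3 ± 3.49 for Slc25a14, 16.7 ± 9.58 for Ucp2, 3.19 ± 0.353 for Slc25a27 and 1.07 ± 0.362 for Ucp3. By mean FPKM, Slc25a4 ranked 51 and Slc25a5 ranked 249 in the whole table, whereas Ucp3 ranked 12101. The order Slc25a4, Slc25a5, then Slc25a14 and Ucp2, then Slc25a27 and Ucp3 held in 12 of 12 libraries. Slc25a14 and Ucp2 were the only neighbours that changed places: Ucp2 was above Slc25a14 in 1 library, CON 3, and below it in the other 11. In the CON group these neighbours did not differ beyond their spread (30.7 ± 8.30 FPKM for Ucp2 and 30.3 ± 4.11 for Slc25a14, SD, n = 3). With PQQ, Ucp2 was below Slc25a14 in each of the 9 libraries.

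**Figure D1:**
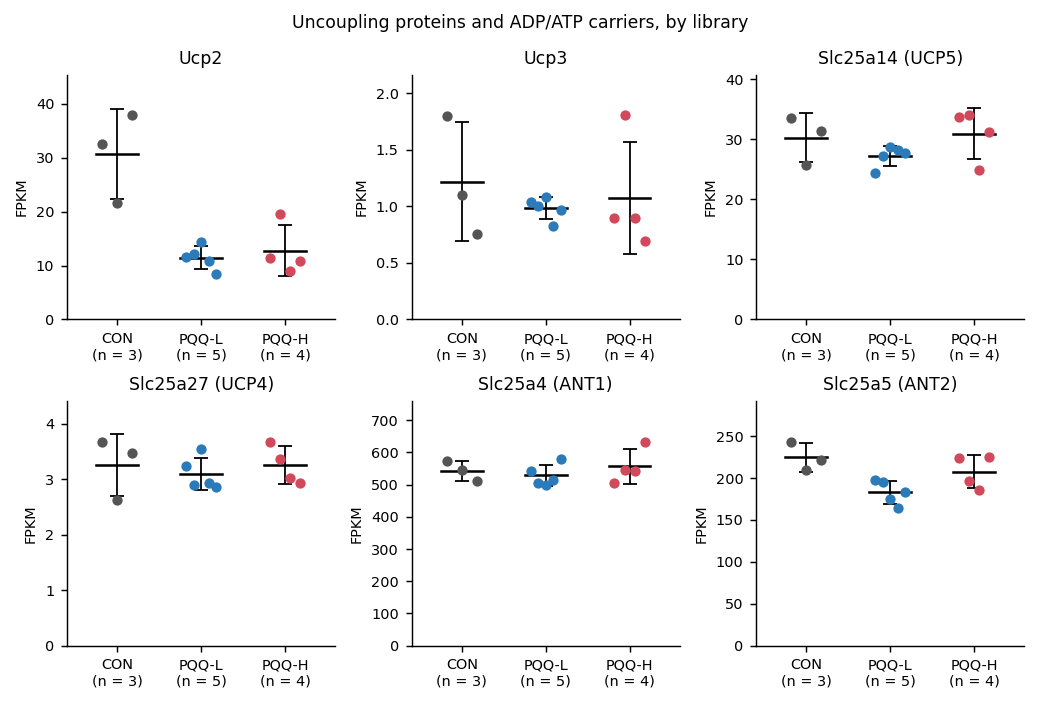
FPKM of each gene (y axis from 0) in the 12 libraries, by group on the x axis. Points are libraries, and the bars give the group mean ± SD. Ucp2 is between 21.6 and 37.9 FPKM in the CON libraries and between 8.37 and 19.7 in the PQQ libraries, while for the other genes the groups lie at like heights, Slc25a5 in PQQ-L excepted.

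Ucp2 was lower with both doses. In the CON libraries 1 to 3 it was at 32.6, 21.6 and 37.9 FPKM. In the PQQ-L libraries 1 to 5 it was at 11.7, 12.1, 14.4, 10.8 and 8.37 FPKM, and in the PQQ-H libraries 1 to 4 at 11.5, 19.7, 8.96 and 10.9 FPKM. The lowest CON library (CON 2) was still above the highest PQQ library (PQQ-H 2), so neither PQQ group overlapped with CON. Such a gap downwards was seen for 7.66% of all genes tested (PQQ-L vs. CON) and 5.72% (PQQ-H vs. CON).

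The group means of Ucp2 were 30.7 ± 8.30 FPKM in CON (SD, n = 3), 11.5 ± 2.19 in PQQ-L (n = 5) and 12.7 ± 4.73 in PQQ-H (n = 4). In PQQ-L vs. CON the log2FC, on the log2(FPKM + 0.1) scale, was -1.39 (SE 0.257, 95% interval -1.96 to -0.83, limma adjusted p = 0.0357), a 2.63-fold decrease. In PQQ-H vs. CON it was -1.29 (SE 0.269, 95% interval -1.88 to -0.70, limma adjusted p = 0.0484), a 2.44-fold decrease. Ucp2 thus passed |log2FC| > 1 with an adjusted p below 0.05 in both comparisons, as 1 of the 6 genes, where 0.471% of all genes tested were called lower in PQQ-L vs. CON and 0.819% for PQQ-H vs. CON. Between the doses the log2FC of PQQ-H vs. PQQ-L was 0.11 (95% interval -0.41 to 0.62, limma adjusted p = 0.855), so no difference was detected, and the interval spans 0.753-fold to 1.54-fold. None of the 6 genes separated these doses, where 3.33% of all genes tested did so downwards and 1.42% upwards. None was higher than CON at an adjusted p below 0.05 either, as 0.0145% of all genes tested were for PQQ-H. The study selected Ucp2 from these same samples, so its direction here is not independent evidence. Lower UCP2 was also reported by the study from RT-qPCR and Western blots of hippocampus, and from Western blots of HT-22 cells. Those measurements are not part of these data. In bulk RNA, fewer cells of a type and less RNA per cell cannot be told apart.

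The call lay close to its threshold, and most libraries could end it. Leaving out each of the 12 libraries in turn kept the log2FC of Ucp2 between -1.63 and -1.22 in PQQ-L vs. CON and between -1.52 and -1.12 for PQQ-H vs. CON, with the call kept in 4 and in 2 of 12 such fits. In PQQ-L vs. CON it was kept without CON 2, PQQ-L 3, PQQ-H 2 or PQQ-H 3 (limma adjusted p = 0.0142, 0.0409, 0.0115 and 0.0310). Without any other library the adjusted p was 0.0544 to 0.224, the highest without CON 1. The PQQ-H vs. CON call was kept without CON 2 (limma adjusted p = 0.0251) or PQQ-H 2 (adjusted p = 0.00794). Without any other library it was 0.0546 to 0.222, the highest without CON 3. Within the libraries whose names open with L, Ucp2 averaged 29.7 FPKM in CON (n = 2), 9.58 in PQQ-L (n = 2) and 13.4 in PQQ-H (n = 3). The labels do not explain this letter, and the other libraries hold 1 CON sample.

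Ucp2 was also read within the libraries rich in striatal markers and within the rest, a split made after its values were seen. The first set holds no PQQ-L library, and the rest holds 1 CON library, CON 2. With these sets tissue composition and treatment cannot be told apart, and the part of composition was not tested. Among the 4 rich in striatal markers, Ucp2 was at 32.6 and 37.9 FPKM in CON and at 11.5 and 19.7 FPKM in PQQ-H. Among the other 8, it was at 21.6 FPKM in the single CON library, at 8.37 to 14.4 in PQQ-L and at 8.96 and 10.9 in PQQ-H. A fit without the 4 libraries gave a log2FC of -0.93 (limma adjusted p = 0.806) in PQQ-L vs. CON and -1.12 (limma adjusted p = 0.297) for PQQ-H vs. CON, with the lone CON library assumed to vary like the other groups.

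**Figure D2:**
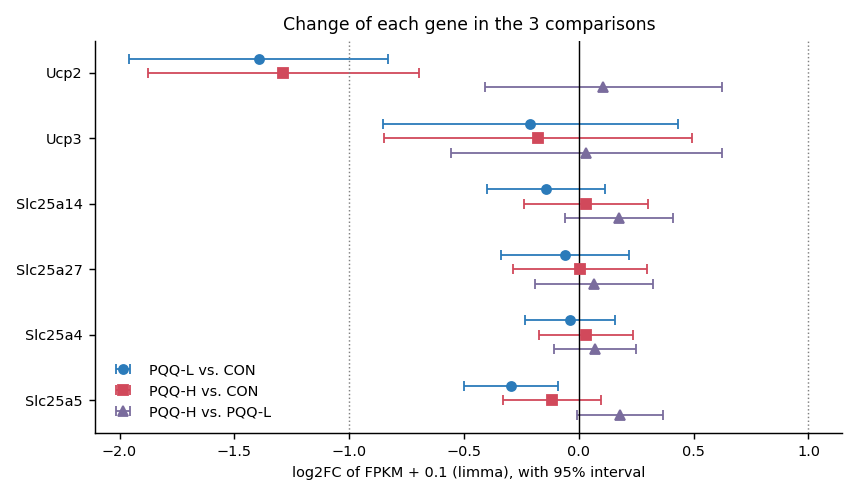
The log2FC of each gene on the log2(FPKM + 0.1) scale (x axis) from limma, with 95% intervals, in the 3 comparisons marked by colour and shape. Dotted lines mark a log2FC of 1 in either direction. The intervals of Ucp2 against CON end at -0.83 and -0.70, and those of the other genes include 0 except for Slc25a5 in PQQ-L vs. CON.

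The change of Ucp2 was also read against the other 5 genes within each library, a measure that does not depend on the library total. The log2 ratio of Ucp2 to each of them was lower in PQQ-L than in CON by 1.10 to 1.36, and lower in PQQ-H by 1.11 to 1.32. No ratio overlapped between the PQQ groups and CON. All of these ratios share Ucp2, whose own values did not overlap, and they were added after those values were seen. They are therefore not evidence separate from the Ucp2 values. The two-sided exact permutation p was 0.0357 for each ratio in PQQ-L vs. CON and 0.0571 for PQQ-H vs. CON, which are the smallest values that 5 against 3 and 4 against 3 libraries allow, and 0.0857 for both after adjustment over 15 ratios. In PQQ-H vs. PQQ-L the differences of these ratios ran from -0.07 to 0.07.

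Ucp2 made up a smaller share of the uncoupling protein FPKM with PQQ. This share is built on the Ucp2 values, which did not overlap with CON, so it is not evidence separate from them. The size of each share depends on the gene lengths behind the FPKM. Of the summed FPKM of the 4 genes, Ucp2 took 45.4%, 42.3% and 51.5% in CON libraries 1 to 3. It took 28.9%, 28.0%, 30.1%, 25.2% and 21.0% in PQQ-L libraries 1 to 5, and 23.0%, 33.4%, 23.7% and 23.8% in PQQ-H libraries 1 to 4. Every PQQ library was below every CON library. The mean share was 46.4% ± 4.65 in CON (SD, n = 3), 26.6% ± 3.65 in PQQ-L (n = 5) and 26.0% ± 4.95 in PQQ-H (n = 4). The difference was -19.8 percentage points in PQQ-L vs. CON (two-sided exact permutation p = 0.0357, adjusted over 6 tests 0.143). For PQQ-H vs. CON it was -20.4 points (exact permutation p = 0.0571, adjusted 0.143). Both unadjusted p-values are the smallest that the exact test allows for these numbers of libraries. In PQQ-H vs. PQQ-L the difference was -0.657 points (exact permutation p = 0.857). The summed FPKM of the 4 genes was 65.4 ± 12.5 in CON, 42.8 ± 3.15 in PQQ-L and 48.0 ± 8.77 in PQQ-H (SD).

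**Figure D3:**
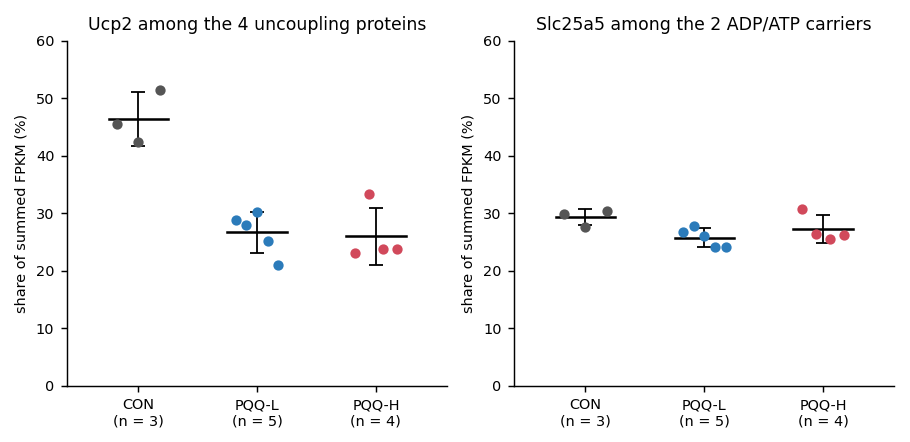
Share (%, y axis from 0) of Ucp2 in the summed FPKM of the 4 uncoupling protein genes (left) and of Slc25a5 in that of the ADP/ATP carrier genes (right), by group. Points are libraries, and bars give the mean ± SD. Ucp2 shares are 42.3% to 51.5% in CON and 21.0% to 33.4% with PQQ, whereas the Slc25a5 shares of the groups overlap.

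Ucp3, the neighbour of Ucp2, passed no test. It was at 1.79, 1.10 and 0.756 FPKM in CON libraries 1 to 3, at 0.824 to 1.08 FPKM in PQQ-L, and at 0.895, 1.80, 0.893 and 0.693 FPKM in PQQ-H libraries 1 to 4. The groups overlapped, and CON 1 and PQQ-H 2 were the highest libraries. The log2FC was -0.21 in PQQ-L vs. CON (95% interval -0.85 to 0.43, limma adjusted p = 0.638) and -0.18 for PQQ-H vs. CON (95% interval -0.85 to 0.49, adjusted p = 0.879). At 58 reads, the lowest of the 12 libraries, counting error alone was 13.1% of the value. The intervals, which come from the spread between libraries, reach from 0.554-fold to 1.35-fold of CON for PQQ-L and from 0.555-fold to 1.41-fold for PQQ-H.

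The neuronal forms showed no difference between the groups in the test. Slc25a14 was at 30.3 ± 4.11 FPKM in CON (SD, n = 3), 27.3 ± 1.68 in PQQ-L (n = 5) and 31.0 ± 4.26 in PQQ-H (n = 4), with a log2FC of -0.14 (95% interval -0.40 to 0.11, limma adjusted p = 0.425) and 0.03 (95% interval -0.24 to 0.30, adjusted p = 0.948) against CON. Slc25a27 was at 3.25 ± 0.554, 3.10 ± 0.291 and 3.25 ± 0.341 FPKM, with a log2FC of -0.06 (95% interval -0.34 to 0.22, adjusted p = 0.764) and 0.01 (95% interval -0.29 to 0.30, adjusted p = 0.991). Both genes overlapped between all groups, and neither differed beyond the spread between libraries. Over the 12 libraries this pair had the highest correlation of log2 values within the family (Pearson r = 0.64), ahead of Ucp2 and Slc25a5 (r = 0.57). This order did not hold within groups. After the group means were removed, r was 0.66 for Ucp2 and Slc25a27, 0.64 for Ucp2 and Slc25a14, 0.63 for Slc25a14 and Slc25a27, and 0.10 for Ucp2 and Slc25a5. These values are a description over libraries that share scaling and the striatal markers.

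Of the ADP/ATP carriers, the heart and muscle form Slc25a4 was the most abundant gene of the set and the steadiest. It was at 543 ± 31.6 FPKM in CON, 529 ± 33.6 in PQQ-L and 556 ± 54.8 in PQQ-H (SD), a coefficient of variation of 7.31% over the 12 libraries. The log2FC was -0.04 (95% interval -0.23 to 0.16, limma adjusted p = 0.782) and 0.03 (95% interval -0.17 to 0.24, adjusted p = 0.931) against CON.

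Slc25a5, the form of proliferating cells and many other tissues, was at 243, 209 and 222 FPKM in CON libraries 1 to 3. It was at 198, 195, 176, 164 and 184 FPKM in PQQ-L libraries 1 to 5, and at 224, 196, 186 and 225 FPKM in PQQ-H libraries 1 to 4. All PQQ-L libraries were below all CON libraries, while PQQ-H overlapped with both. In PQQ-L vs. CON, 7.66% of all genes tested had such a gap downwards. The log2FC in PQQ-L vs. CON was -0.30 (95% interval -0.50 to -0.09), which did not pass after adjustment over all genes (limma adjusted p = 0.191). Without CON 2 the adjusted p was 0.0411, at a log2FC of -0.35, in a fit where 10.7% of all genes tested passed as lower. In PQQ-H vs. CON the log2FC was -0.12 (95% interval -0.33 to 0.10, adjusted p = 0.765), and in PQQ-H vs. PQQ-L it was 0.18 (95% interval -0.01 to 0.37, adjusted p = 0.580). Of 1141 windows of 100 bases along the Slc25a5 transcripts, 12.0% also occur in transcripts of 4 other annotated genes (Gm5256, Gm5529, Gm5560 and Gm6425), so reads there may be shared out or dropped in counting. No such window was found for the other 5 genes.

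The balance of the ADP/ATP carriers did not pass its test. Slc25a5 made up 29.3% ± 1.39 of the summed ADP/ATP carrier FPKM in CON, 25.7% ± 1.63 in PQQ-L and 27.2% ± 2.42 in PQQ-H (SD). The difference of -3.52 percentage points in PQQ-L vs. CON had a two-sided exact permutation p = 0.0714 (adjusted over 6 tests 0.143), and that of -2.04 points for PQQ-H vs. CON had p = 0.229 by the same exact test (adjusted 0.343). The groups overlapped in both.

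Close relatives of the 6 genes gave little signal or little change. Ucp1, the brown fat form, had at most 2 reads in any library. Slc25a31, the germ line ADP/ATP carrier, had at most 4 reads and none in the CON libraries. Slc25a30, which is closely related to UCP5, was at 0.908 ± 0.450, 1.19 ± 0.0407 and 1.04 ± 0.231 FPKM in CON, PQQ-L and PQQ-H (SD), with a limma adjusted p = 0.265 and 0.799 against CON. Slc25a3, the phosphate carrier that supplies ATP synthase, was at 259 ± 17.5, 225 ± 9.19 and 246 ± 19.6 FPKM (SD). Its log2FC was -0.20 (limma adjusted p = 0.233) in PQQ-L vs. CON, where it did not overlap with CON, and -0.08 (adjusted p = 0.812) for PQQ-H vs. CON. In PQQ-L vs. CON, a gap downwards like that of Slc25a3 was seen for 7.66% of all genes tested.

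Among 38 other mitochondrial carriers tested, 0 had a limma adjusted p below 0.05 in either comparison with CON. At an unadjusted p below 0.05, 2 were higher and 6 lower in PQQ-L vs. CON, where 8.92% of all genes tested were higher and 11.6% lower. For PQQ-H vs. CON 0 were higher and 2 lower, where 1.85% and 7.88% of all genes tested were. Their median log2FC was -0.03 and -0.04, against -0.03 for all genes tested in both comparisons. It turned to 0.010 and 0.026 under median-of-ratios scaling and to 0.0011 and 0.021 under quantile normalization, and for PQQ-L to 0.080 with TPM. They ranged from -1.15 to 0.47 and from -0.78 to 0.29, and none lay below Ucp2. The lowest in both was Slc25a13, an aspartate/glutamate carrier, at a log2FC of -1.15 (adjusted p = 0.233) and -0.78 (adjusted p = 0.654), with CON values from 0.558 to 2.04 FPKM. Without CON 2, 7 of these carriers passed the adjusted p in PQQ-L vs. CON, 3 lower and 4 higher, where 10.7% and 12.6% of all genes tested passed. For PQQ-H vs. CON 1 passed, where 1.36% of all genes tested passed as lower and 0.058% as higher.

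**Figure D4:**
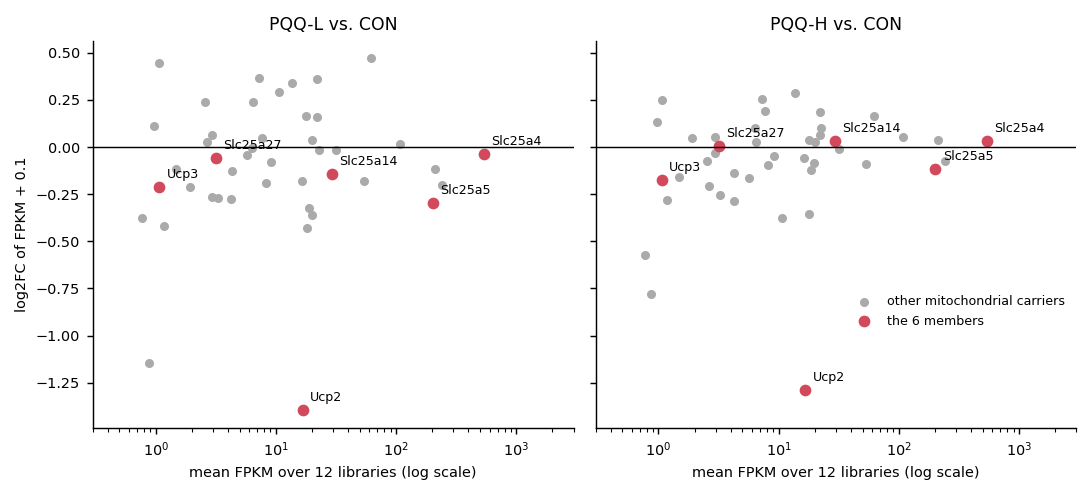
The log2FC of FPKM + 0.1 (y axis) against the mean FPKM over 12 libraries (x axis, log scale) for the 6 genes (red) and 38 other mitochondrial carriers tested (grey). Ucp2 lies lowest in both panels, at -1.39 and -1.29, and the other members lie among the grey points.

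Other parts of the ADP and ATP route were read in the same way. Of 22 genes for pores, kinases and regulators around ADP and ATP, 0 passed an adjusted p of 0.05 in limma against CON, the median log2FC being -0.13 for PQQ-L and -0.02 for PQQ-H, which turned to 0.046, 0.0015 and 0.0025 for PQQ-H under median-of-ratios scaling, TPM and quantile normalization. At an unadjusted p below 0.05, 3 were higher and 3 lower in PQQ-L vs. CON, against 8.92% and 11.6% of all genes tested, and 0 were higher and 2 lower for PQQ-H vs. CON, against 1.85% and 7.88%. The largest changes were those of Tspo, a cholesterol-binding protein of the outer mitochondrial membrane that is prominent in glia, and Ak5, an adenylate kinase of brain. Tspo was at 13.8 ± 6.97, 4.96 ± 0.764 and 5.24 ± 1.64 FPKM in CON, PQQ-L and PQQ-H (SD), at a log2FC of -1.32 (limma adjusted p = 0.124) and -1.28 (adjusted p = 0.158). Ak5 was at 29.2 ± 22.7, 53.0 ± 10.3 and 41.8 ± 24.1 FPKM, at a log2FC of 1.15 (adjusted p = 0.240) and 0.64 (adjusted p = 0.764). Its CON values ranged from 10.4 to 54.3 FPKM, so the groups overlapped. Without CON 2, 8 of the 22 genes passed in PQQ-L vs. CON, 4 in each direction, where 12.6% of all genes tested passed as higher and 10.7% as lower, and 1, Tspo, for PQQ-H vs. CON.

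All 17 ATP synthase subunits in the table lay below 0 in PQQ-L vs. CON (median log2FC -0.26), as did 16 of 17 for PQQ-H vs. CON (median -0.08), where 53.9% and 55.6% of all genes tested lay below 0. None passed the adjusted p in limma. Under median-of-ratios scaling, TPM and quantile normalization, 17, 16 and 15 lay below 0 for PQQ-L (48.7%, 39.7% and 47.8% of all genes tested) and 11, 16 and 15 for PQQ-H (41.8%, 50.8% and 43.5%). At an unadjusted p below 0.05, 10 were lower in PQQ-L vs. CON and 1 for PQQ-H vs. CON, against 11.6% and 7.88% of all genes tested. Without CON 2, 9 passed in PQQ-L vs. CON, all lower, where 10.7% of all genes tested did so, and 0 for PQQ-H vs. CON. No test over the list was made.

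Of 21 genes known to act on uncoupling protein genes or proteins, 0 passed in limma, and the median log2FC was 0.02 in PQQ-L vs. CON and 0.01 for PQQ-H vs. CON. At an unadjusted p below 0.05, 2 were higher and 2 lower in PQQ-L vs. CON, against 8.92% and 11.6% of all genes tested, and 1 higher and 1 lower for PQQ-H vs. CON, against 1.85% and 7.88%. Sirt1, a deacetylase known to repress Ucp2 in other tissues, was the gene the study set beside Ucp2. The study reported more SIRT1 protein and a predicted activation, whereas the values here are RNA. The FPKM of Sirt1 was 2.80 ± 0.238 in CON, 3.54 ± 0.272 in PQQ-L and 3.15 ± 0.188 in PQQ-H (SD). In PQQ-L vs. CON every PQQ-L library was above every CON library, a gap upwards seen for 2.96% of all genes tested, at a log2FC of 0.33 (limma adjusted p = 0.173). In PQQ-H vs. CON the log2FC was 0.17 (adjusted p = 0.642) and the groups overlapped. Without CON 2, 8 of the 21 genes passed in PQQ-L vs. CON, Sirt1 among them, 3 of the 8 lower and 5 higher, in a fit where 10.7% and 12.6% of all genes tested passed.

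Several marker lists were, like Ucp2, lower than CON in their sums. Of 18 marker lists, the summed FPKM lay below CON without overlap for 4 lists at each dose, and above CON for 0. The summed FPKM of 25 choroid plexus markers, the epithelium that makes cerebrospinal fluid, was 351 to 776 in CON, 78.4 to 144 in PQQ-L and 66.7 to 89.3 in PQQ-H. Of the 23 tested, 16 were lower with a limma adjusted p below 0.05 in PQQ-L vs. CON and 20 for PQQ-H vs. CON, where 0.587% and 1.08% of all genes tested were. The sum of 12 ependymal markers was 52.0 to 78.1, 26.0 to 53.2 and 12.7 to 35.6 FPKM in CON, PQQ-L and PQQ-H. That of 7 MHC class II genes, which present antigen, was 20.4 to 39.7, 5.26 to 8.04 and 3.79 to 13.6 FPKM. Choroid plexus and MHC class II sums did not overlap between CON and either PQQ group, and the ependymal sum overlapped for PQQ-L. The sum of 12 markers of meninges and fibroblasts was 57.7 to 90.6 FPKM in CON and 19.2 to 22.3 in PQQ-H, and overlapped with CON in PQQ-L (25.3 to 63.3). That of 10 markers of border macrophages was 4.86 to 5.58 FPKM in CON and 3.30 to 4.46 in PQQ-L, and overlapped in PQQ-H (3.31 to 5.94). That of 6 markers of cholinergic neurons was 0.633 to 29.7 FPKM in CON and 0.0662 to 0.442 in PQQ-L, and overlapped in PQQ-H (0.0267 to 19.1). None of the markers of these lists was at 0 throughout a group. Outside the choroid plexus list fewer markers passed as lower at an adjusted p below 0.05 in limma. In PQQ-L and PQQ-H vs. CON they were 0 and 5 of 11 ependymal markers tested and 2 and 3 of 6 MHC class II genes. Of 11 markers of meninges and fibroblasts 2 and 3 passed. Of the 3 border macrophage and 5 cholinergic markers tested, 0 passed in either comparison. Among lists whose sums overlapped, all 12 markers of hippocampal neurons lay above 0 against CON (median log2FC 1.09 for PQQ-L and 0.49 for PQQ-H). All 10 oligodendrocyte markers and all 12 striatal markers lay below 0 in both comparisons, as did 53.9% and 55.6% of all genes tested. None of the markers of these 3 lists passed the adjusted p. The sums of 8 thalamic markers overlapped too, with a median log2FC of -1.45 for PQQ-L and -1.47 for PQQ-H. Of these markers 7 and 8 lay below 0, and 0 passed the adjusted p in limma. At an unadjusted p below 0.05, 5 were lower in each comparison, against 11.6% and 7.88% of all genes tested.

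Microglial markers, in contrast, did not separate the groups. Their sum over 15 genes was 313 to 536 FPKM in CON, 320 to 390 in PQQ-L and 371 to 580 in PQQ-H, and 0 of 15 passed in limma in either comparison with CON (at an unadjusted p below 0.05, 1 was lower in PQQ-L vs. CON and 2 were higher for PQQ-H vs. CON). With a microglial score in the fit, the log2FC of Ucp2 was -1.10 (adjusted p = 0.0296) in PQQ-L vs. CON and -1.38 (adjusted p = 0.00247) for PQQ-H vs. CON. PQQ-H 2, which had the highest Ucp2 of the PQQ libraries, also had the highest microglial sum of all libraries and the highest MHC class II sum of the PQQ libraries. With a choroid plexus score in the fit, the log2FC of Ucp2 was 0.18 (SE 0.682) and 0.72 (SE 0.858), with a limma adjusted p = 0.9997 and 0.9996, and 0 genes were called in either comparison. That score separates CON from both PQQ groups, so it and the treatment cannot be told apart. The part of these cell types in the Ucp2 result was not tested.

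**Figure D5:**
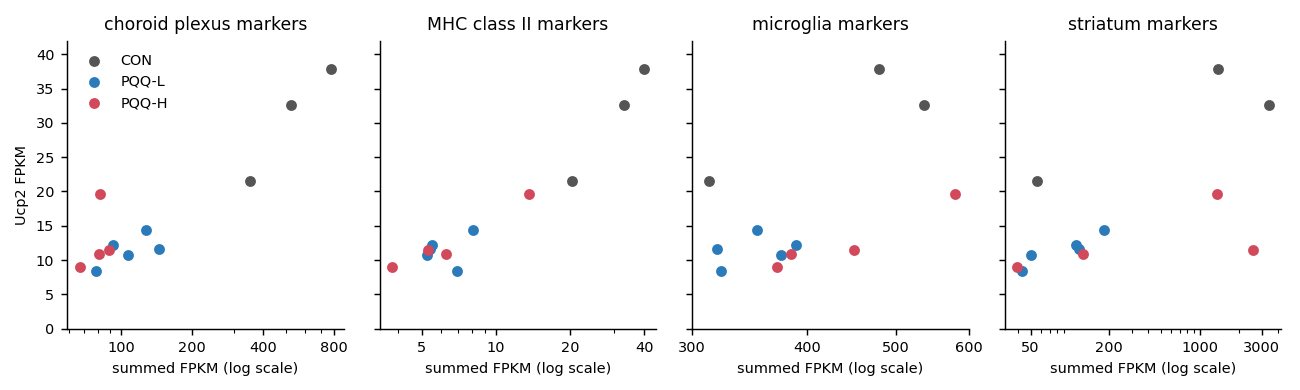
Ucp2 FPKM (y axis from 0) against the summed FPKM of 4 marker lists (x axes, log scale) in the 12 libraries, coloured by group. The CON libraries stand apart on the choroid plexus and MHC class II axes, at 351 to 776 and 20.4 to 39.7, but not on the microglia axis, and 4 libraries stand apart on the striatum axis, at 1349 to 3388.

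A gene on the other strand overlaps Ucp2. Dnajb13, which encodes a protein of motile cilia and sperm tails, covers the last 305 bases of Ucp2 in the annotation. It was at 0.560 to 0.670 FPKM in CON (34 to 35 reads), 0.0919 to 0.490 in PQQ-L (6 to 30 reads) and 0.0332 to 0.166 in PQQ-H (2 to 10 reads). The strandedness of the counting is not given in the sources used here, so reads of the pair may not be separated. Ucp2 itself had at least 575 reads in each library. Ucp3 is overlapped by the antisense gene Gm10603 over 1857 bases, and Slc25a14 hosts the miRNA gene Gm27828.

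The genes most like each member were read by Pearson r of log2(FPKM + 0.1) over the 12 libraries among the 13795 other genes tested. These correlations describe libraries that share group, tissue composition and scaling. For Ucp2 they were Cd320 (r = 0.98), Ltbr, Parp10, Slc37a2, F11r, Rnaset2b, H2-Q4, Tmem176b, Ifitm3 and Fxyd1 (r = 0.96). After the group means were removed, Cd151 (r = 0.98), Cd320, Igfbp7, Rnaset2b, Acadm, Bola3, Slco1a4, Tmed3, Suclg2 and Taf10 (r = 0.93) came first. Cd320 and Rnaset2b stood in both lists, so their likeness to Ucp2 was present within the groups as well as between them. Of the genes on these lists 1, the endothelial gene Slco1a4, was in a marker list.

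For Ucp3 the most similar genes over the 12 libraries were Sfxn5 (r = 0.96), Dazap1, Asrgl1, Acsbg1 and Etnppl (r = 0.89), and Sfxn5, Dazap1 and Acsbg1 came up again within groups. For Slc25a14 they were Tmem243, Hdhd5, Trnau1ap, Med29 and Fcgr2b (r = 0.95 to 0.93), and for Slc25a27 Ccdc42, Mocs1, P2ry14, Foxf2 and Tnk2 (r = 0.94 to 0.92). Slc25a4 was most like Faf1, Cycs, Ramac, Tsg101 and Nfu1 (r = 0.91 to 0.88), among which Cycs encodes cytochrome c. Slc25a5 was most like Psmc4, Esrra, Ghitm, C1qbp and Nipsnap2 (r = 0.95 to 0.93), among which Esrra encodes an orphan nuclear receptor that acts on mitochondrial genes.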

How the data were processed

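Total RNA of the hippocampus was extracted by the authors with TRIzol and sequenced on an Illumina NovaSeq. Reads were filtered with fastp, mapped with HISAT2 and counted per gene with HTSeq-count. The submitters' processing notes name mm39, and the tool versions, the annotation and the strandedness are not given in the sources used here. FPKM values of 27833 genes in 12 libraries were deposited by the authors.

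The FPKM steps of each gene gave back its reads, whole to within 0.02 reads for 100% of the 25563 genes above 0 in at least 2 libraries. Steps were tried until all values were whole, so this share alone does not show that the reads are right. In simulated data of 2929 genes, all reads of a gene came back right for 99.3%. Over 19 pairs of libraries within groups, chi-square divided by its degrees of freedom was at least 18.8, so no library duplicated another of its own group. Pairs from different groups were not part of this check. In the comparisons, log2(FPKM + 0.1) was tested for 13796 genes (mean FPKM of 0.5 or more) in one fit of 12 libraries (limma 3.58.1 in R 4.3.3, trend, Benjamini-Hochberg), and genes were called at |log2FC| > 1 and adjusted p < 0.05, the thresholds of the study. The step was tested on simulated data for PQQ-L vs. CON, where limma called 197 of 200 genes given a log2 change of 3, along with 5 others. That change is larger than those of Ucp2, and the simulated noise was independent between genes. Calls at the size seen for Ucp2 were therefore not tested. Shares and ratios within a library were compared by two-sided exact permutation tests (Python 3.11.15, scipy 1.17.1). With 5 against 3, 4 against 3 and 4 against 5 libraries an exact permutation test cannot go below p = 0.0357, 0.0571 and 0.0159. Counting error covers reads only.

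The members, gene lists and alternatives were chosen with earlier results of these data known. The genes named are the members, the 5 genes (10 for Ucp2) most like each, close paralogs, Sirt1 and the 3 list genes with the largest |log2FC|. The ratios of Ucp2 to other members and the fit without 4 libraries were added after these values were seen. Alternatives were other pseudocounts, filters, scalings, TPM, subsets, weights, covariates, a replicate block, voom on reads and each library left out. Replicate numbers do not pair the samples here.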

Additional observations from a re-analysis of the deposited data

Results flagged for a closer look

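Of the 16 groups of 4 or 5 libraries examined for a library far from the rest, 1 held such a library, where chance gives about 1 in 20. The Ucp2 share of the uncoupling protein FPKM was 33.4% in PQQ-H 2, against 23.0% to 23.8% in the other PQQ-H libraries, and the gap made up 0.925 of the group's range, above Dixon's limit of 0.829 for 4 samples. PQQ-H 2 also had the highest Ucp2 FPKM of the PQQ libraries and the highest sum of microglial markers. Whether these go together was not tested.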

How the results depend on the processing

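In PQQ-L vs. CON, the log2FC of Ucp2 stayed below 0 in all settings but 1, and missed the call with array weights (-1.35), with the letter that opens the library name (-1.44) or the striatum score (-1.02) as a covariate, and without the 4 libraries rich in striatal markers (-0.93). It turned to 0.18 with the choroid plexus score. Leaving out each library gave -1.63 to -1.22, and the call was lost without CON 1, CON 3, PQQ-L 1, 2, 4 or 5, or PQQ-H 1 or 4. In PQQ-H vs. CON, Ucp2 missed the call with a pseudocount of 0.01 (-1.29), all genes above 0, a stricter filter at a mean FPKM of 1, no trend or only the groups compared (-1.29 in each, adjusted p = 0.0579, 0.0586, 0.0570 and 0.243), median-of-ratios scaling (-1.22), quantile normalization (-1.25), array weights (-1.30), the letter (-1.27) and without the 4 libraries (-1.12), and turned to 0.72 with the choroid plexus score. Leaving out each library gave -1.52 to -1.12, and the call was kept only without CON 2 or PQQ-H 2. Between the doses Ucp2 turned to -0.28 (microglia score), -0.14 (striatum score) and -0.19 (without the 4 libraries), and leaving out each library gave -0.12 to 0.25. The cause was not tested.

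The number of genes called in PQQ-L vs. CON was 65, but 112 with all genes above 0, 42 at a mean FPKM of 1 or more or with the striatum score, 17 with array weights, 123 with voom on recovered reads, 0 with the choroid plexus score and 1 without the 4 libraries. Leaving out libraries gave 23 (without CON 1) to 866 (without CON 2), with 37 without CON 3 and 43 without PQQ-L 1. In PQQ-H vs. CON it was 113, but 170, 68, 44 (only the groups compared), 31 (array weights), 0 (choroid plexus score) and 6 (without the 4 libraries), and 62 (without CON 3) to 153 (without PQQ-H 2), and leaving out CON 1, PQQ-H 3 or PQQ-H 4 gave 64, 68 and 67. The number of pathway list genes with an adjusted p below 0.05 was 0, but 2 with the microglia score and 1 with the striatum score for PQQ-H vs. CON, and 0 to 32 and 0 to 2 when libraries were left out, the highest without CON 2.

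TPM scaling took the median log2FC of all genes tested from -0.03 to 0.08 in PQQ-L vs. CON and from -0.02 to -0.11 in PQQ-H vs. PQQ-L. The signs of the small changes turned in several settings, none past the threshold. In PQQ-L vs. CON, Ucp3 turned to 0.027 (striatum score). Slc25a14 turned to 0.092 (choroid plexus), 0.031 (striatum) and 0.084 (without the 4 libraries). Slc25a27 turned to 0.048 (TPM), 0.58, 0.031 and 0.13 (choroid plexus, microglia and striatum scores) and 0.23 (without the 4 libraries). Slc25a4 turned to 0.0020 (median-of-ratios), 0.072 (TPM) and 0.18 (quantile). In PQQ-H vs. CON, Slc25a14 turned to -0.011 (microglia), Slc25a27 to -0.048 (array weights) and -0.024 (microglia), and Slc25a4 to -0.36 (choroid plexus). In PQQ-H vs. PQQ-L, Ucp3 turned to -0.054 (TPM), -0.11 (array weights), -0.12, -0.24 and -0.13 (choroid plexus, microglia and striatum scores) and -0.28 (without the 4 libraries). Slc25a14 turned to -0.00020 (microglia), Slc25a27 to -0.019 (TPM), -0.054 (microglia), -0.064 (striatum) and -0.051 (without the 4 libraries), and Slc25a4 to -0.017 (TPM), -0.11 (quantile) and -0.016 (choroid plexus). When libraries were left out in turn, PQQ-L vs. CON gave -0.48 to 0.090 for Ucp3, -0.20 to 0.030 for Slc25a27 and -0.084 to 0.00031 for Slc25a4, PQQ-H vs. CON gave -0.45 to 0.12 for Ucp3, -0.082 to 0.13 for Slc25a14, -0.14 to 0.096 for Slc25a27 and -0.032 to 0.078 for Slc25a4, and PQQ-H vs. PQQ-L gave -0.23 to 0.19 for Ucp3.

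In PQQ-L vs. CON the difference in the Ucp2 share was -23.8 points within the libraries whose names open with L (n = 2 against 2). Its exact permutation p of 0.333 is the smallest that such a test allows. When libraries were left out the difference was -21.8 to -17.2 points, and the exact test of fewer libraries could not go below 0.05. In PQQ-H vs. PQQ-L it was 3.62 points within those libraries and -3.13 to 0.333 when libraries were left out.

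The replicate numbers share no stated source, and same-numbered libraries deviated from their group means with correlations from -0.62 to 0.72. With the number as a replicate block, 23 genes were called in PQQ-L vs. CON and 48 for PQQ-H vs. CON. The log2FC of Ucp2 was -1.23 in both (limma adjusted p = 0.526 and 0.324). That of Slc25a27 was 0.0037 in PQQ-L vs. CON, and that of Slc25a4 was -0.00038 for PQQ-H vs. CON. The Ucp2 share differed by -17.4 points in PQQ-L vs. CON (exact permutation p = 0.25, the smallest that the same-numbered pairs allow).

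The 3 CON libraries limit every comparison. The FPKM normalization is that of the authors, and the depth leaves Ucp3 with under 200 reads. Slc25a5 kept its direction in all settings run. Some scalings turned the median log2FC of the other carriers and, for PQQ-H, of the ADP and ATP genes above 0, as given with those lists.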
